A study of Mus musculus with 237 samples.

Results

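The 10 genes described here encode basement membrane collagens, nidogens, perlecan and the Fraser complex. They are the type IV collagen chains Col4a1 and Col4a2, the nidogens Nid1 and Nid2, perlecan (Hspg2), the anchoring fibril collagen Col7a1, and Fras1, Frem1, Frem2 and Grip1 of the Fraser complex. The members were given as a list of gene names, and they are 10 of the 55335 genes in the count table. The question was on which side of the skin, epithelium or mesenchyme, the RNA of each component was found.

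The basement membrane is a thin sheet of matrix between an epithelium and its connective tissue. It is built from a laminin network and a type IV collagen network, which nidogens and perlecan join, and in skin type VII collagen forms anchoring fibrils that tie the sheet to the dermis. FRAS1, FREM1 and FREM2 form a complex in the basement membrane of the embryo, GRIP1 is an adaptor that helps bring FRAS1 and FREM2 to the basal side of epithelial cells, and mice that lack any of these proteins have blisters under the epidermis before birth.

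The libraries were made from skin cells of C57BL/6N mouse fetuses at E14.5, carried by surrogate ICR mothers, and the labels list 66 cells of 3 wild-type embryos and 171 cells of 7 p63 (Trp63) knockout embryos. The knockouts were founder embryos, made by introducing Cas9 protein and a p63 guide RNA into zygotes, so the alleles can differ between embryos and between cells of an embryo. Wild-type epidermis was separated with dispase before trypsin, whereas knockout fetuses were digested with trypsin directly, and the sorted cells lacked CD45, TER119 and CD140a. The paper describes a screen by PCR for Krt5 (wild type) or Krt8 (knockout), with no marked amplification of Pdgfra. Each library held full-length cDNA of 1 cell (SMART-Seq HT), without molecular identifiers.

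Columns of the count table carry run names, not cell names, and 16 of the 237 could be paired with a labelled cell. All 16 came from the wild-type embryo WT01 and comprised 11 WT-KCB cells (basal layer keratinocytes), 1 WT-KCI cell (intermediate layer) and 4 WT-KCP cells (periderm in the study's naming, labelled K17 high). For the other 221 libraries the embryo, genotype and label are not known, so they were grouped by marker RNA in CPM, the rounded count of a gene over the library total, scaled to a total of 1e6. Libraries with at least 100 CPM of Col1a1 and of Col3a1 were called mesenchymal. Those with at least 100 CPM of Krt8 and Krt18 and under 100 CPM of Krt5 and Krt14 were called simple, and those with at least 300 CPM of Krt5 and Krt14 and under 100 CPM of Krt8 were called basal. These rules gave 78 mesenchymal, 65 simple and 54 basal libraries. A further 39 met no rule, and 1 met the mesenchymal and the simple rule and was kept apart.

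Library totals ran from 2701500 to 9838162 counts in the mesenchymal group (median 6085480.5), from 2874152 to 19197138 in the simple group (median 7298099) and from 4934158 to 15709545 in the basal group (median 7821784.5). In every library 10 CPM stood for at least 28 counts. All 70 cells labelled p63 KO fibroblast came from 1 knockout embryo, MU01, and which libraries hold them is not known. State, embryo, genotype and tissue preparation therefore cannot be told apart, the libraries of a state are not replicates, and no test between states was possible. Intervals below are 95% intervals. Those for summed counts are exact Poisson and cover the counting of reads only. Those for shares of libraries are exact Clopper-Pearson, which treats the libraries as independent draws. As libraries share embryos that are not known, neither kind covers the spread between embryos.

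The marker lists hold genes of the state rules, so their sums are not separate support for the states. Of markers outside the rules, Col1a2, Lum and Dcn were at 16031, 4113 and 3310.4 CPM in the mesenchymal libraries, 48.9, 44.4 and 972 in the simple and 7.91, 0.744 and 686 in the basal libraries. Epcam and Cdh1 were at 1.92 and 0.180 CPM, 1196 and 868 CPM, and 389.7 and 403 CPM in the same order. In the mesenchymal libraries 10 of 10 fibroblast markers reached 10 CPM in the summed counts, together 71177 CPM, of which Col3a1 and Col1a1 of the rule made up 31663 and 13391 CPM. Pdgfra, which encodes CD140a, had a median of 257 CPM there (0.348 to 949.9) although the sort had selected cells without CD140a. Krt5 was at 0 in all 78 of them and Krt8 rose no higher than 2.11 CPM. The mesenchymal libraries as a group thus do not match the described screen, and how they came to be sequenced is not known. Mural markers reached 10 CPM for 7 of 8 genes, with a sum of 312 CPM led by Kcnj8 at 74.6 CPM, and 49 libraries had at least 2 of them at 10 CPM. Muscle markers reached it for 5 of 6 genes, with a sum of 540.3 CPM led by Actc1 at 388 CPM, and in 8 libraries at least 2 did. Endothelial markers summed to 42.7 CPM, led by Tek at 28.7 CPM, with Pecam1 and Tie1 at 0.

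The simple libraries had 4 of 6 epithelial markers at 10 CPM, the other 2 being Krt5 and Krt14, which the rule keeps low. Of their sum of 5892 CPM, Krt8 and Krt18 of the rule made up 2264 and 1550 CPM. Fibroblast markers reached 10 CPM for 5 of 10 genes and summed to 1694 CPM, led by Dcn at 972 CPM. Mural markers reached it for 3 of 8 genes and summed to 218 CPM, led by Notch3 at 110.1 CPM. Schwann markers reached it for 1 of 6 genes and summed to 206 CPM, led by Erbb3 at 202 CPM, and 4 libraries had at least 2 of them at 10 CPM. Col3a1 had a median of 61.9 CPM and reached 100 CPM in 32 of the 65, while Col1a1 rose no higher than 89.4 CPM, as libraries with 100 CPM of both were not counted as simple. Red blood cell markers summed to 12997 CPM, with Hba-a1 at 7602 CPM, and 1 library held 470893 CPM of them. The basal libraries had 5 of 6 epithelial markers at 10 CPM, with a sum of 10186 CPM. Of this sum, Krt5 and Krt14 of the rule made up 3692 and 5682 CPM. Fibroblast markers there reached 10 CPM for 2 of 10 genes and summed to 1258 CPM, with Pdgfrb, Dpt and Twist2 at 0. Dcn led them at 686 CPM and reached 10 CPM in 53 of the 54 basal libraries. Whether these RNAs came from other cells or from the sorted cell itself was not tested, nor was their part in the members' values. Counts without some of the libraries that carry them are given below.

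Across the 10 members, 6 were over 4-fold higher in the mesenchymal than in the simple libraries, where 9.02% of the 11236 genes tested were, and 2 were over 4-fold lower, against 9.46%. A gene was tested if it had at least 10 CPM in the summed counts of either group. Log2 ratios, to which the 4-fold limit was applied, were taken after adding 1 CPM to each summed level, and folds are plain ratios of the summed CPM, so a fold against a low level is larger than its log2 ratio. Mesenchymal against basal, 2 of 10 members were over 4-fold higher, against 9.61% of 10964 genes, and 3 were over 4-fold lower, against 6.48%. Simple against basal, 0 of 10 were over 4-fold higher, against 5.74% of 10754 genes, and 4 were lower, against 3.65%. The members' median log2 ratio was 3.55 in the first comparison, 1.07 in the second and -0.37 in the third, beside 0.00 in each for the 33418 genes with a count. Of the 10 members, 9, 10 and 8 were tested, and the counts are over all 10. Grip1, not tested in the first comparison, had a log2 ratio of -2.19 there.

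Leaving out the 3 simple libraries with the most red blood cell RNA, those of the simple group with Col3a1 at 100 CPM or more, or those of the mesenchymal group with at least 2 muscle markers at 10 CPM gave 8 of 10 members past 4-fold between mesenchymal and simple libraries in each case (18.1%, 21.1% and 18.9% of the genes tested). The number past 4-fold between simple and basal libraries was 4 with each of the first 2 sets left out (8.99% and 11.9% of genes). A reduced set left out libraries with at least 2 endothelial, mural, muscle, Schwann, melanocyte, immune or neuron markers at 10 CPM, whereas fibroblast and red blood cell markers were not used for it. It kept 28 mesenchymal, 58 simple and 48 basal libraries. In it 8 members were past 4-fold between mesenchymal and simple (20.9% of the genes tested), 6 between mesenchymal and basal (17.4%) and 3 between simple and basal libraries (9.87%). Several ratios moved in this reduced set, and the values of those that moved most are given with the member.

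**Figure D1:**
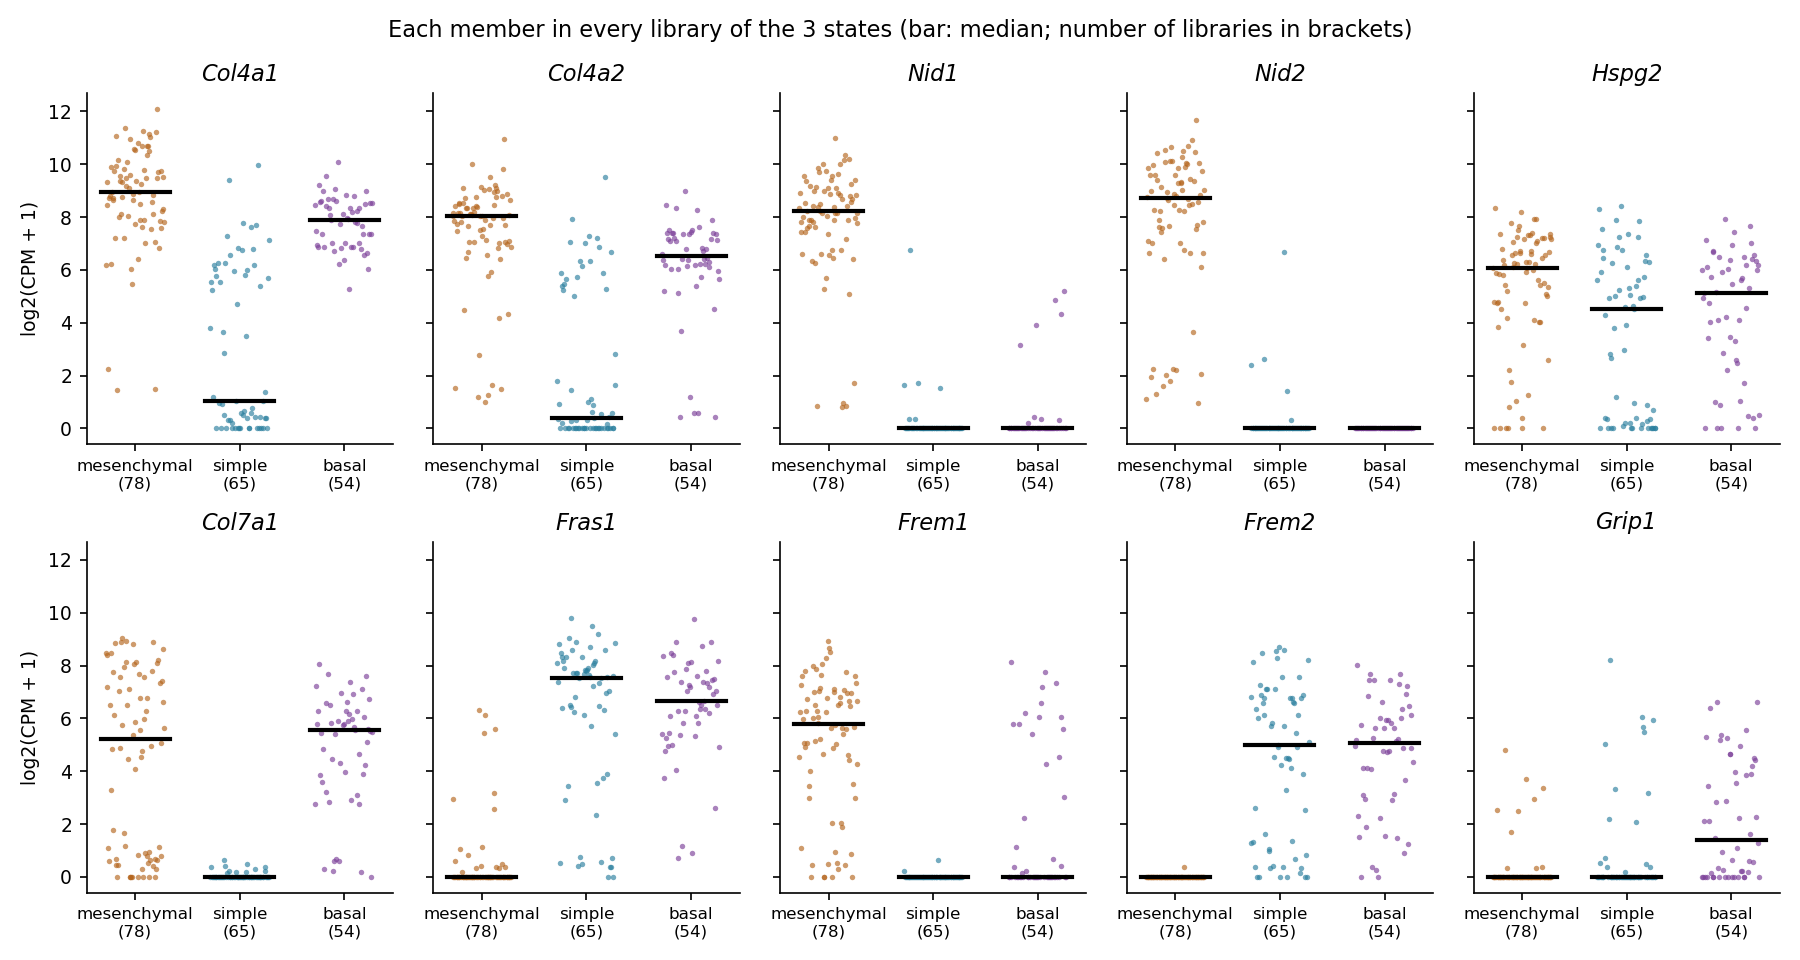
Level of each of the 10 members in every library of the mesenchymal (78), simple (65) and basal (54) groups, on an axis of log2(CPM + 1); each point is 1 library and the bar is the median. Nid1 and Nid2 sit high in the mesenchymal group, with a median of 0 in both epithelial groups, Fras1 and Frem2 sit high in both epithelial groups, and Col4a1 and Hspg2 reach high values in all 3.

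Col4a1 (ENSMUSG00000031502) and Col4a2 (ENSMUSG00000031503) encode the alpha chains that join into the main trimer of type IV collagen. The genes lie head to head on chromosome 8 of GRCm38, Col4a1 on the minus strand from 11198423 to 11312826 and Col4a2 on the plus strand from 11312805 to 11449287. Their start sites are 21 bases apart, and their first exons overlap by 22 bases. The promoter of Col4a2 is shown because these members moved together. It runs from 250 bases before the start to 50 after it (chr8:11312555-11312854, GRCm38.p6, plus strand, RefSeq) and shares 78 bases with the Col4a1 window, which lies on the other strand.

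Col4a2: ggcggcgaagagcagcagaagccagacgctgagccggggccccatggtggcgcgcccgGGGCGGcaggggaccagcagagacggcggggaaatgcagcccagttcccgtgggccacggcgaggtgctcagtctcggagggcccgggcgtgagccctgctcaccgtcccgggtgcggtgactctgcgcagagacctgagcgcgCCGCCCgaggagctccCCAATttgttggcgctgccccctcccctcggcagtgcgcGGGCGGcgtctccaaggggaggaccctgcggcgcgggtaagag

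Capitals mark matches to 3 motifs, searched on both strands and without overlap among them. The first, the GC box, is spelled GGGCGG and was found in 35.7% of 32851 RefSeq promoters of the same length. The second, the CAAT box, is spelled CCAAT and was found in 37.4% of them. The third, the TATA box, is spelled TATAAA and was found in 13.6%. The Col4a2 window held 3 GC boxes, 1 CAAT box and no TATA box. Of the 10 members, 8 had a promoter in that set, all but Nid2 and Fras1. A match describes the letters of the window and says nothing of binding.

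Col4a1 ranged from 1.76 to 4313 CPM in the mesenchymal libraries (median 494), from 0 to 996 in the simple libraries (median 1.04) and from 37.3 to 1088 in the basal libraries (median 236). The mesenchymal and basal values overlapped widely, and the simple libraries split between many near 0 and others within the basal range. At least 10 CPM was found in 75 of 78 mesenchymal libraries (96.2%, interval 89.2 to 99.2), in 54 of 54 basal libraries (at least 93.4% by the interval) and in 29 of 65 simple libraries (44.6%, 32.3 to 57.5). In summed counts Col4a1 was at 779.5 CPM in the mesenchymal, 57 CPM in the simple and 283 CPM in the basal group. The mesenchymal level was 13.7-fold the simple level (log2 3.75) and 2.75-fold the basal level (log2 1.46), and the basal level was 4.97-fold the simple level (log2 of simple against basal -2.29). In the reduced set the mesenchymal log2 ratios of Col4a1 fell to 3.01 against simple and 0.83 against basal libraries.

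Col4a2 followed the same order. It ranged from 0.971 to 1975 CPM in mesenchymal libraries (median 263), from 0 to 729 in simple libraries (median 0.317) and from 0.344 to 504 in basal libraries (median 91.9). The ranges overlapped here too, and 71 of 78, 20 of 65 and 49 of 54 libraries reached 10 CPM. Summed levels were 297, 28.1 and 124 CPM. The mesenchymal level was 10.6-fold the simple level (log2 3.36) and 2.39-fold the basal level (log2 1.25), with log2 ratios of 2.68 and 0.72 in the reduced set. The simple-to-basal ratio of Col4a2, log2 -2.10, was close to the 4-fold limit and fell short of it in 4 alternatives, by the most (-1.64) when the libraries' CPM were averaged in place of summed counts.

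Per kb of exon, where levels of different genes can be compared, Col4a1 exceeded Col4a2 in most libraries that had at least 10 CPM of both. The median log2 ratio of Col4a1 to Col4a2 per kb was 1.20 over 70 mesenchymal libraries (quartiles 0.62 to 1.65), and 62 of them were above 0. In 49 basal libraries it was 0.94 (0.45 to 1.58), with 41 above 0. In the 16 simple libraries with both, the median was 0.17 (-0.39 to 0.66), with 9 above 0. A further 13 simple libraries reached 10 CPM in Col4a1 alone and 4 in Col4a2 alone. In summed counts per kb, Col4a1 was above Col4a2 in all 3 groups, at 104 against 44.9 (mesenchymal), 7.63 against 4.25 (simple) and 37.9 against 18.8 (basal).

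Nid1 (ENSMUSG00000005397; chromosome 13, 13437551 to 13512269, plus strand) and Nid2 (ENSMUSG00000021806; chromosome 14, 19751265 to 19811787, plus strand) encode the nidogens, which bind laminin and type IV collagen and join the networks. The Nid1 promoter window (chr13:13437352-13437651, GRCm38.p6, plus strand, RefSeq) is shown because the nidogens were found almost wholly in mesenchymal libraries. It held 1 GC box, 1 CAAT box on the other strand, and no TATA box, with capitals as above.

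Nid1: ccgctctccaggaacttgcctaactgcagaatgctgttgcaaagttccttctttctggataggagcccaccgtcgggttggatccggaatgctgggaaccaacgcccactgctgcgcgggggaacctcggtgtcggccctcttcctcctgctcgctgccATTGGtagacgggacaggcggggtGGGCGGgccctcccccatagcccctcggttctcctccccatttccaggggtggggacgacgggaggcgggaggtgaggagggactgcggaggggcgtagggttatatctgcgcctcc

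Nid1 ranged from 0.759 to 2031 CPM in the mesenchymal libraries (median 297), from 0 to 107 in the simple libraries (median 0) and from 0 to 36.2 in the basal libraries (median 0). Most epithelial libraries had no count (59 of 65 simple and 45 of 54 basal), and 73 of 78 mesenchymal libraries reached 10 CPM against 1 of 65 simple and 4 of 54 basal libraries. The 1 simple library at 107 CPM held 96.5% of all Nid1 counts of its group, and without it the summed level fell from 1.68 to 0.0598 CPM. Against 389.6 CPM in the mesenchymal group, the level was 231-fold the simple level (log2 ratio after adding 1 CPM, 7.19) and 227-fold the basal level of 1.72 CPM (after adding 1 CPM, 7.17). With the 1 library that met the mesenchymal and the simple rule counted in both, the first log2 ratio was 6.07. Of the exon bases of Nid1, 2.06% lie in Gm48682, an antisense gene, and the strand setting of the counting is not stated.

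Nid2 ranged from 0.922 to 3277 CPM in the mesenchymal libraries (median 419) and from 0 to 100.3 in the simple libraries (median 0), and it was at 0 in all 54 basal libraries. The mesenchymal group reached 10 CPM in 67 of 78 libraries and the simple group in 1 of 65. The groups overlapped at that 1 simple library and also under 10 CPM, where the next highest simple library was at 5.12 CPM. Summed, Nid2 was at 544 CPM in the mesenchymal and 0.723 CPM in the simple group, a 752-fold ratio (log2 ratio after adding 1 CPM, 8.30, and 7.05 with the library of both rules counted in both). Without the highest simple library the simple level was 0.0934 CPM. In the basal group a count of 0 allows up to 0.00649 CPM by reads (3 counts over the summed total of the group). By that bound the mesenchymal level was at least 83862-fold higher (log2 of CPM + 1, 9.09, and 8.13 in the reduced set). The bound takes reads as independent, which they are not without molecular identifiers, and leaves out that the group held only 54 libraries. For 0 of 54 libraries at 10 CPM, the interval of the share reached 6.60%. Of the exon bases of Nid2, 8.45% are shared with Rtraf on the other strand. Of the deposited values, 47.1% of the nonzero values of Nid1 and 48.9% of those of Nid2 were not whole numbers, against 23.2% of all nonzero values.

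Hspg2 (ENSMUSG00000028763; chromosome 4, 137468769 to 137570630, plus strand) encodes perlecan, the heparan sulfate proteoglycan of the basement membrane. It ranged from 0 to 322 CPM in mesenchymal libraries (median 66.7), from 0 to 343 in simple libraries (median 22.1) and from 0 to 242 in basal libraries (median 34.3). The 3 groups overlapped throughout their ranges. At least 10 CPM was found in 64 of 78 mesenchymal (82.1%, interval 71.7 to 89.8), 36 of 65 simple (55.4%, 42.5 to 67.7) and 35 of 54 basal libraries (64.8%, 50.6 to 77.3). Summed levels of 78.6, 47.6 and 48.8 CPM gave log2 ratios of 0.71 (mesenchymal against simple), 0.68 (mesenchymal against basal) and -0.04 (simple against basal). In the reduced set the mesenchymal ratios were 0.26 and 0.08. Perlecan RNA was thus found on both sides at levels less than 4-fold apart.

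**Figure D2:**
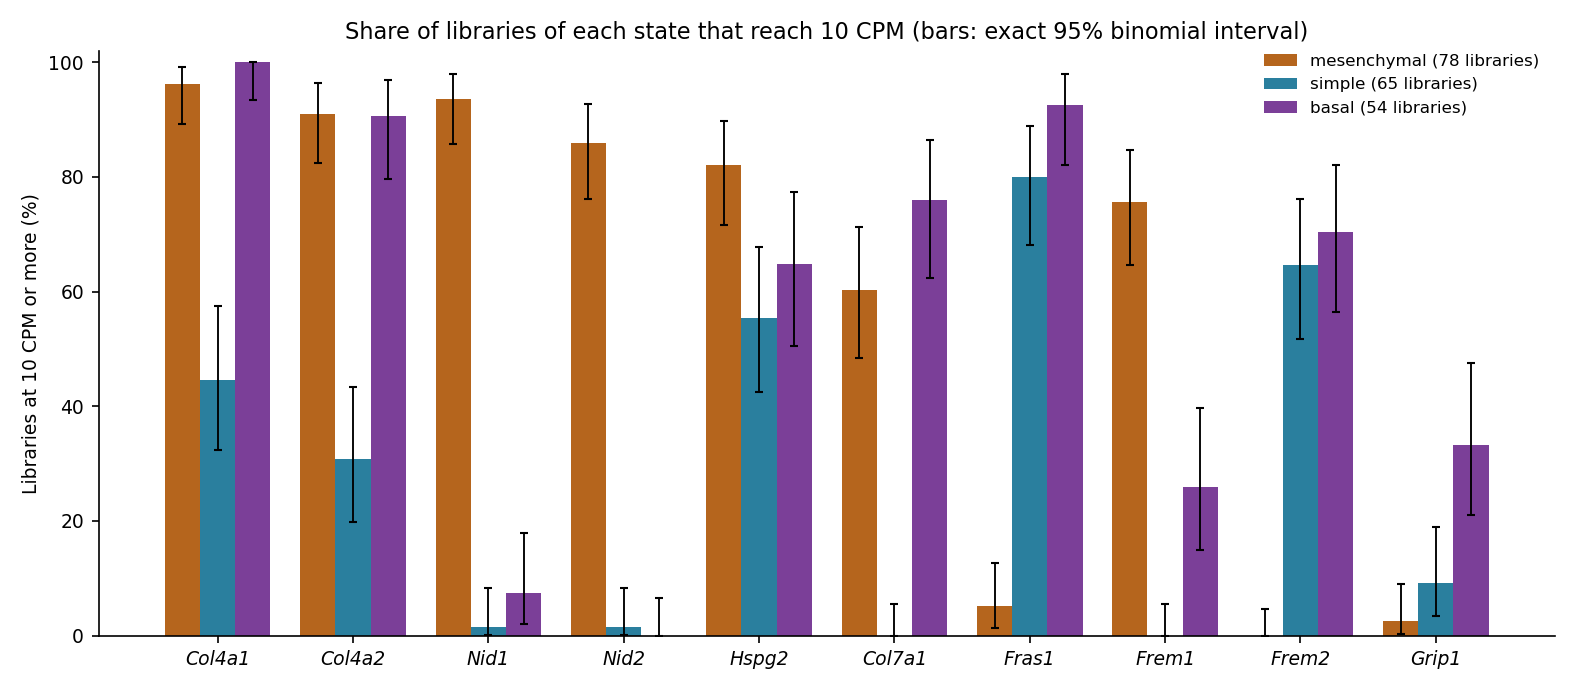
Share of the mesenchymal (78), simple (65) and basal (54) libraries in which each member reached 10 CPM, in percent, with exact 95% intervals as error bars. Nid1 reached it in 93.6% of mesenchymal and 1.54% of simple libraries, whereas Hspg2 reached it in 82.1%, 55.4% and 64.8% of the libraries.

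Col7a1 (ENSMUSG00000025650; chromosome 9, 108953586 to 108984875, plus strand) encodes the collagen of the anchoring fibrils. It ranged from 0 to 532 CPM in mesenchymal libraries (median 36.2) and from 0 to 268 in basal libraries (median 45.9), but from 0 to 0.569 in simple libraries (median 0). The mesenchymal and basal values overlapped over most of their ranges, and no simple library came near the median of either. It reached 10 CPM in 47 of 78 mesenchymal (60.3%, interval 48.5 to 71.2) and 41 of 54 basal libraries (75.9%, 62.4 to 86.5) and in 0 of 65 simple libraries, which the interval puts at no more than 5.52%. The summed level was 117 CPM in mesenchymal and 62.6 CPM in basal libraries, a 1.87-fold ratio (log2 0.89, and 1.72 in the reduced set). In the simple group 24 counts were found in all, 0.0428 CPM (0.0275 to 0.0638), so the basal level was 1461-fold and the mesenchymal level 2737-fold higher. Mesenchymal and basal libraries thus carried Col7a1 RNA, and simple libraries were low.

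Fras1 (ENSMUSG00000034687; chromosome 5, 96373955 to 96784728, plus strand) and Frem2 (ENSMUSG00000037016; chromosome 3, 53513938 to 53657355, minus strand) encode the membrane-anchored proteins of the Fraser complex. Fras1 ranged from 0 to 79.7 CPM in mesenchymal libraries (median 0), from 0 to 894 in simple libraries (median 185) and from 0.622 to 865 in basal libraries (median 99.5). The epithelial groups overlapped each other throughout, and 60 of the 78 mesenchymal libraries had no Fras1 count at all. At least 10 CPM was found in 4 of 78 mesenchymal, 52 of 65 simple and 50 of 54 basal libraries. Summed levels were 3.14 CPM (2.98 to 3.30) in mesenchymal, 174 CPM in simple and 156 CPM in basal libraries, so the simple level was 55.6-fold and the basal level 49.9-fold the mesenchymal level (log2 ratios of mesenchymal against each after adding 1 CPM, -5.41 and -5.25). Those log2 ratios were -7.30 and -7.27 in the reduced set, -4.54 and -4.42 with the marker limits of the states doubled, and -4.64 and -4.48 with the library of both rules counted in both.

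The Frem2 promoter window (chr3:53657306-53657605, GRCm38.p6, minus strand, RefSeq) is shown as that of the member most nearly confined to the epithelial groups. It held 2 CAAT boxes, both on the strand opposite to the gene, and neither a GC box nor a TATA box.

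Frem2: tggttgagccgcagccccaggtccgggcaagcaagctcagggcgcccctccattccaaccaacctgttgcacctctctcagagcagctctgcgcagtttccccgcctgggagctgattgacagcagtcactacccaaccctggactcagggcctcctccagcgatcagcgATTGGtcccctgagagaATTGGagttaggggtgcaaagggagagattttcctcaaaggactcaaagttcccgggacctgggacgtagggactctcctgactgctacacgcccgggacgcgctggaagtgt

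Frem2 ranged from 0 to 418 CPM in simple libraries (median 30.5) and from 0 to 260.4 in basal libraries (median 32.2), and in the mesenchymal libraries it had 2 counts in all, both in 1 library at 0.297 CPM. The epithelial groups overlapped, with 42 of 65 and 38 of 54 libraries at 10 CPM or more. Simple libraries were at 73.6 CPM in summed counts, 17375-fold the mesenchymal level (counting interval 4809.5 to 143474), and basal libraries at 57.8 CPM, 13643-fold (3776 to 112659.7). The log2 ratios of mesenchymal against each, after adding 1 CPM, were -6.22 and -5.87. They rested on keeping apart the library of both rules, which held 112 CPM of Frem2, and were -4.81 and -4.46 with it counted in both and -4.82 and -4.40 with the marker limits doubled. Between simple and basal libraries the log2 ratio was 0.34 for Frem2 and 0.16 for Fras1, so neither differed 4-fold within the epithelium.

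Frem1 (ENSMUSG00000059049; chromosome 4, 82897920 to 83052339, minus strand) encodes the secreted member of the complex. It ranged from 0 to 489 CPM in mesenchymal libraries (median 54.1) and from 0 to 283 in basal libraries (median 0), while the 65 simple libraries had 3 counts in all. Basal libraries overlapped the mesenchymal range in a minority, 14 of 54 at 10 CPM or more (25.9%, interval 15 to 39.7) against 59 of 78 (75.6%) in the mesenchymal group, and 32 of the 54 had no count. The mesenchymal summed level of 85.7 CPM was 15992-fold the simple level (counting interval 5472 to 77549), which rested on 3 counts and was 0.00180 CPM without the highest library. The log2 ratio after adding 1 CPM was 6.43, and 5.51 with the library of both rules, at 70.5 CPM of Frem1, counted in both. The mesenchymal level was 3.94-fold the basal level of 21.7 CPM. That log2 ratio, 1.93, lay just under the 4-fold limit and passed it in 6 alternatives, reaching 2.37 in the reduced set. The basal level was itself 4058-fold the simple level (1388 to 19681), with a log2 ratio of simple against basal of -4.50, or -3.59 with the library of both rules counted in both.

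Grip1 (ENSMUSG00000034813; chromosome 10, 119453830 to 120087261, plus strand) encodes the intracellular adaptor of the complex. It ranged from 0 to 27.1 CPM in mesenchymal libraries (median 0), from 0 to 295 in simple libraries (median 0) and from 0 to 98.2 in basal libraries, whose median was above 0. Most libraries of each group were under 10 CPM, with 2 of 78, 6 of 65 and 18 of 54 (33.3%, interval 21.1 to 47.5) at or above it. The basal summed level of 13 CPM was 14.6-fold the mesenchymal level of 0.888 CPM (log2 ratio of mesenchymal against basal after adding 1 CPM, -2.89, and -3.51 in the reduced set). In the mesenchymal group 1 library held 37.2% of the Grip1 counts, and without it the level was 0.564 CPM. With the highest library left out of each state, that log2 ratio was -2.88. The simple level, 7.63 CPM with all libraries and 4.74 CPM without the highest, was like the mesenchymal level under 10 CPM, so that comparison was not tested. Within the complex, Fras1 and Frem2 were thus over 4-fold higher in each epithelial group than in the mesenchymal group, Grip1 in the basal group, and Frem1 was over 4-fold higher in the mesenchymal than in the simple group.

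In CPM per kb of exon, the order of the members' summed levels differed between the states. The mesenchymal order per kb was Nid2 (105), Col4a1 (104), Nid1 (56.1) and Col4a2 (44.9), then Col7a1 (11.4), Frem1 (6.13) and Hspg2 (5.49), and last Fras1 (0.177), Grip1 (0.110) and Frem2 (0.000320). The quartile ranges of neighbours in that order did not overlap between Col4a2 and Col7a1 or between Hspg2 and Fras1, and overlapped at every other step. The simple order per kb was Fras1 (9.85), Col4a1 (7.63), Frem2 (5.56), Col4a2 (4.25) and Hspg2 (3.33), a step at which the quartile ranges parted from those that followed, Grip1 (0.947), Nid1 (0.242), Nid2 (0.140), Col7a1 (0.00417) and Frem1 (0.000383). By median CPM per kb, the simple order was Fras1 (10.4), Frem2 (2.30), Hspg2 (1.55), Col4a1 (0.140) and Col4a2 (0.0479), so the place of the collagens rested on a minority of libraries, and 1 library held 25.8% of the Col4a1 counts. The mesenchymal medians per kb put Hspg2 (4.66) before Frem1 (3.87) and Col7a1 (3.51). The basal order per kb was Col4a1 (37.9), Col4a2 (18.8), Fras1 (8.83), Col7a1 (6.09), Frem2 (4.36), Hspg2 (3.41), Grip1 (1.61), Frem1 (1.55), Nid1 (0.247) and Nid2 (0), and every pair of neighbours overlapped. Nid2 and Col4a1 were level at the head of the mesenchymal order on this per-length scale, with overlapping quartile ranges.

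Components of 1 assembly could be counted in the same cell. Col4a1, Col4a2, Nid1, Nid2 and Hspg2 all reached 10 CPM in 45 of 78 mesenchymal libraries and in 0 of 65 simple and 0 of 54 basal libraries. Nid1 and Nid2 were together in 63 mesenchymal libraries. Fras1 and Frem2 were together in 36 of 65 simple and 36 of 54 basal libraries and in 0 mesenchymal libraries, and Grip1 joined them in 4 simple and 14 basal libraries. All of Fras1, Frem2 and Frem1 reached 10 CPM in 8 basal, 0 simple and 0 mesenchymal libraries, so the RNAs of the extracellular complex were rarely found in 1 cell. Nid1 and Fras1, which marked opposite sides, were together in 4 mesenchymal, 1 simple and 4 basal libraries.

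Within a state, the levels of some members moved together over libraries, as log2(CPM + 1). These values describe libraries that share embryos which are not known and that differ in depth. Col4a1 and Col4a2 had r = 0.72 in 78 mesenchymal libraries (Spearman 0.73), 0.59 in 65 simple libraries (0.57) and 0.42 in 54 basal libraries (0.51). Leaving out the 2 libraries farthest in Col4a1 gave 0.70, 0.60 and 0.39. Col7a1 and Frem1 had r = 0.47 in mesenchymal libraries (0.51, and 0.46 without the 2 farthest), and 40 of the 78 had both at 10 CPM. Nid2 and Col7a1 ran opposite ways there, with r = -0.40 (-0.51, and -0.36 without the 2 farthest), so mesenchymal libraries differed among themselves in which components were high. The nidogens had r = 0.32 (0.46, 0.37), and Fras1 and Frem2, though found in the same groups, had only r = 0.22 in simple (0.15) and 0.16 in basal libraries (0.15).

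**Figure D3:**
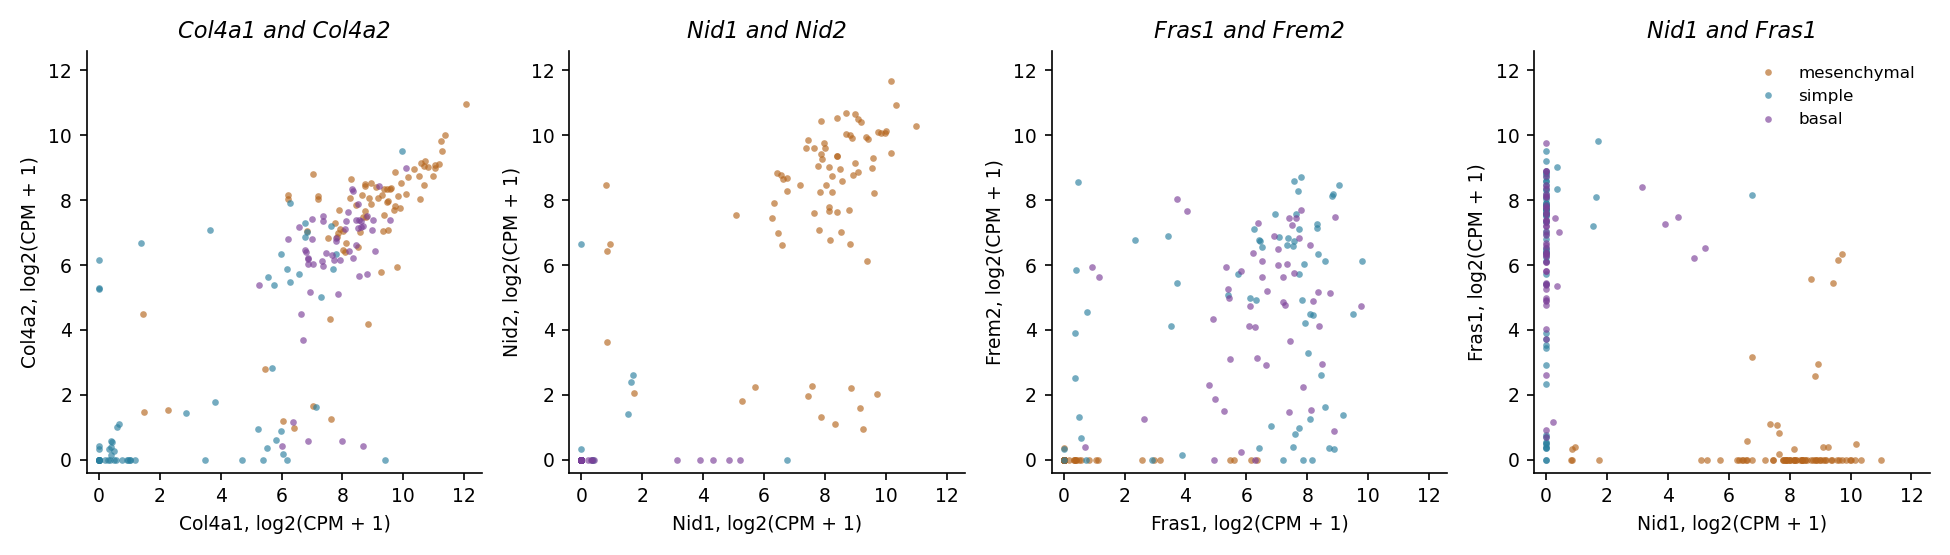
Levels of 4 pairs of members (Col4a1 and Col4a2, Nid1 and Nid2, Fras1 and Frem2, Nid1 and Fras1) in each library on axes of log2(CPM + 1), coloured by state. Col4a1 and Col4a2 rise together within each state, while Nid1 and Fras1 fill opposite corners, with 4 mesenchymal, 1 simple and 4 basal libraries at 10 CPM or more of both.

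The genes most like Col4a1, Nid1, Fras1 and Frem1 over all 237 libraries were ranked by Pearson r of log2(CPM + 1) among 11968 genes. The states are separate clusters, so the pooled r served only to rank, and values within a state are given beside it. The nearest to Col4a1 were Col4a2 (0.80), Dse, Col5a1, Mfge8 and Serpinh1 (0.62 to 0.64). Within mesenchymal libraries their r with Col4a1 was 0.72 for Col4a2, 0.16 for Mfge8, 0.02 for Dse, -0.26 for Serpinh1 and -0.35 for Col5a1. The nearest to Nid1 were its overlapping antisense gene Gm48682 (0.92; 0.88 within mesenchymal libraries) and Lama4 (0.91; 0.56), Col1a1 (0.90; 0.50), Pmp22 (0.90; -0.04) and Col6a2 (0.90; 0.42). Fras1 was nearest to Spint2 (0.77), Wnt6, Cdh1, Pkp3 and Igsf9 (each 0.75), and Frem1 to C1qtnf2 (0.74), Bgn (0.73), Ncam1 (0.73), Gm11149 (0.72) and Col26a1 (0.72). The 5 neighbours of Fras1 had r from -0.09 to 0.02 within mesenchymal, from 0.23 to 0.43 within simple and from -0.15 to 0.37 within basal libraries. Those of Frem1 had r from 0.38 (Bgn) to 0.59 (C1qtnf2) within mesenchymal libraries. Within basal libraries r with Frem1 was 0.65 for Ncam1, 0.54 for Gm11149 and 0.29 for Bgn.

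The 16 labelled cells gave values from 1 wild-type embryo. All 11 WT-KCB and 4 WT-KCP cells met the basal rule, and the WT-KCI cell met none. Totals ran from 7020607 to 9001846 counts in WT-KCB cells and from 6345186 to 8984376 in WT-KCP cells, with 8244067 in the WT-KCI cell. Nid2 was at 0 in all 16. In the WT-KCI cell the 10 members ranged from 0 to 1.46 CPM, the highest being Fras1. Cells of 1 embryo are not replicates, so the labels were compared as values only.

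In WT-KCP cells 1 to 4, Col4a1 was 365, 239.7, 749.5 and 122 CPM, and in the 11 WT-KCB cells it ran from 73.7 to 375 with a median of 219. Those ranges overlapped. Frem1 in WT-KCP cells was 7.15, 95.2, 54.9 and 283 CPM, and in WT-KCB cells it was 0 to 214 with a median of 0. Every WT-KCP cell was above 10 of the 11 WT-KCB cells, and the exception was WT-KCB cell 2 at 214 CPM, with the next WT-KCB cell at 0.285 CPM. The summed WT-KCP level of 103 CPM was 5.37-fold the WT-KCB level of 19.2 CPM, a log2 ratio of 2.37. That log2 ratio was 6.65 without WT-KCB cell 2 and 1.42 without WT-KCP cell 4. Frem1 was the 1 member of 10 over 4-fold higher, against 5.57% of 10601 genes, and 0 of 10 were over 4-fold lower, against 6.80%. The members' median log2 ratio was 0.70, beside 0.00 for all genes with a count.

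The label of WT-KCP cells is K17 high, so their Krt17 level is what named them and no finding. Over the 54 basal libraries, which include these 4 cells, Frem1 and Krt17 had r = 0.51 (Spearman 0.45, and 0.46 without the 2 farthest). Fras1 leaned the other way, with 90.6, 39.6, 30.5 and 12.3 CPM in WT-KCP cells and 41.9 to 480.1 with a median of 166 in WT-KCB cells. The 2 groups met at 1 WT-KCP cell. Its log2 ratio was -1.94, and it passed 4-fold without WT-KCP cell 1 (-2.53) and without WT-KCB cell 1, 2, 9 or 11 (-2.05, -2.03, -2.02 and -2.01). The other members with a count ranged from log2 -0.22 (Col4a2) to 1.17 (Grip1), and most of these rested on 1 cell. Without WT-KCP cell 1, Grip1 went from 1.17 to -0.94 and Nid1 from 0.98 to -2.15. Without WT-KCP cell 3, Col4a1 went from 0.79 to 0.09 and Hspg2 from 0.92 to 0.25. Without WT-KCP cell 4, Frem2 went from 0.60 to -0.51 and Col4a2 from -0.22 to 0.03, and without WT-KCP cell 2, Col7a1 went from 0.22 to -0.02.

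**Figure D4:**
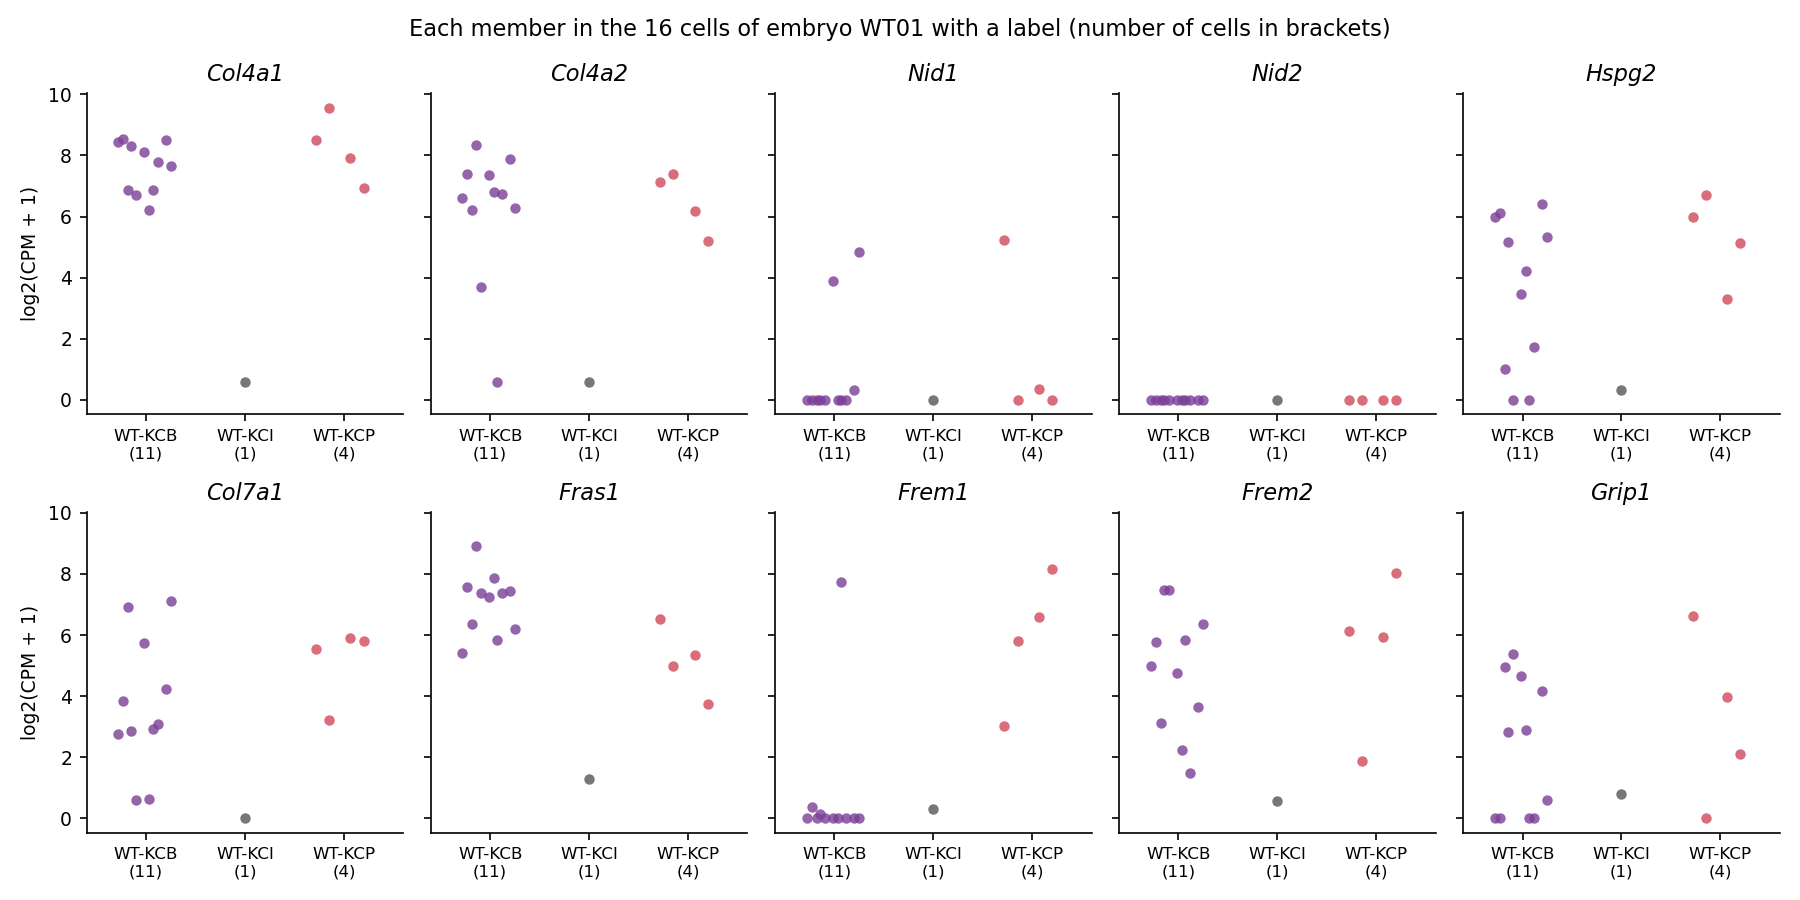
Level of each member in the 16 cells of embryo WT01 by label, on an axis of log2(CPM + 1); each point is 1 cell (11 WT-KCB, 1 WT-KCI, 4 WT-KCP). Col4a1 reached 73.7 CPM or more in every WT-KCB and WT-KCP cell, Frem1 was high in WT-KCP cells and 1 WT-KCB cell, and the WT-KCI cell was at 1.46 CPM or below throughout.

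Genes that work with the members were read from 6 lists, each by its counts of genes over 4-fold apart and its median log2 ratio, beside 0.00 for all genes with a count. Counts are over the whole list, and the shares of all tested genes are those given for the members, 9.02% higher and 9.46% lower for mesenchymal against simple, 9.61% and 6.48% for mesenchymal against basal, and 5.74% and 3.65% for simple against basal libraries. Of 26 genes for collagen folding, modification and secretion, 25 were in the table and 22 tested, and 16 were over 4-fold higher and 0 lower in mesenchymal than in simple libraries (median 3.35, or 3.60 with genes at 0 on 1 side set to their bound). Against basal libraries, 14 were higher and 0 lower (23 tested, median 2.35). The largest log2 ratios were those of the crosslinking enzyme Lox (1209 against 0.452 CPM, log2 9.70), of Pcolce (7.74), which enhances procollagen cleavage, of Loxl2 (7.35) and of the chaperone Fkbp10 (6.55). Against simple libraries the largest were Lox (6.82), the prolyl hydroxylase P3h1 (6.06), Loxl1 (5.57) and the lysyl hydroxylase Plod1 (5.04). Simple against basal, 4 were higher and 3 lower (19 tested, median -0.14), with P4ha3 (4.81), P3h2 (-4.44), Pcolce (4.15) and Loxl2 first.

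Of 24 other basement membrane components, 6 were higher and 4 lower in mesenchymal than in simple libraries (16 tested, median 0.60), led in log2 ratio by Fbln2 (7.55), Fbln1 (4.84), Npnt (-4.30) and Vwa2 (-4.05). Npnt and Vwa2 encode nephronectin and AMACO. Against basal libraries 5 were higher and 7 lower (18 tested, median -0.19, -0.20 with bounds), led by Egfl6 (6.00), Vwa2 (-3.98), Col18a1 (55.3 against 800.3 CPM, -3.83) and Papln (-3.60). Simple against basal, 1 was higher and 5 lower (16 tested, median 0.01), led by Fbln2 (-6.33), Ntn4 (-4.38), Papln (-3.40) and Fbln1 (-3.06).

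Among 11 laminin chains, 2 were higher and 3 lower in mesenchymal than in simple libraries (8 tested, median 1.08) and 2 higher and 4 lower against basal (9 tested, median 0.81). By log2 ratio, Lama4 (6.88 and 7.14) and Lama2 (4.99 against simple) lay with the nidogens on the mesenchymal side. Lama5 (-4.11 against simple), Lama3 (-7.62 against basal) and Lamb3 (-5.92 against basal) lay on the epithelial side. Simple against basal, 0 were higher and 2 lower (7 tested, median -0.23), Lamb3 (-4.35) and Lama3 (-3.69).

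Of 16 receptors, 4 were higher and 4 lower in mesenchymal than in simple libraries (14 tested, median 0.91), led in log2 ratio by Itga8 (6.39), Ddr2 (6.31), Itga1 (5.95) and Itga3 (-5.77). Itga8, whose product pairs with integrin beta 1 and binds nephronectin and FREM1, was at 84 CPM in mesenchymal and 0.0143 CPM in simple libraries. Against basal libraries 3 were higher and 6 lower (15 tested, median -0.68), led by Ddr2 (8.11), Itga3 (-6.98), Itgb4 (-6.69) and Bcam (-6.03). Simple against basal, 0 were higher and 4 lower (12 tested, median -1.16), namely Itga2 (-4.30), Sdc1 (-3.97), Itga6 (-2.29) and Itgb4 (-2.21).

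Of 16 proteases and inhibitors, 5 were higher and 0 lower in mesenchymal than in simple libraries (13 tested, median 0.60, or 1.0 with bounds), led in log2 ratio by Mmp2 (6.61), Adamts9 (5.30), Reck (4.97) and Timp1 (3.93). Against basal libraries 6 were higher and 0 lower (12 tested, median 1.27, 1.83 with bounds), led by Reck (6.24), Adamts9 (5.91), Timp2 (4.64) and Adamts1 (3.74). Simple against basal, 2 were higher (Hpse, 3.87, and Timp2, 2.72) and 1 lower (Mmp2, -4.43), with 11 tested and a median of 0.52. Among 5 genes related to Grip1, of which 4 were tested in each comparison, Pick1 alone passed 4-fold, lower in mesenchymal than in simple (-2.47) and basal (-2.11) libraries, with list medians of -1.50, 0.00 and, simple against basal, 0.36.

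Between WT-KCP and WT-KCB cells few genes of any list passed 4-fold, where 5.57% of tested genes were higher and 6.80% lower. They included, with their log2 ratios, Hmcn1 (4.48) and Tinagl1 (-5.11) of the other components (median -0.11, -0.06 with bounds), Loxl2 (3.94), Fkbp10 (3.52) and Plod3 (-3.40) of the collagen enzymes (median 0.00), and Itga1 (-4.46) of the receptors (median -0.28). Adamts1 (-3.75), Reck (2.26), Adamts5 (2.19) and Timp3 (-2.07) passed it among the proteases (median 0.00), Lama4 (4.26) among the laminins (median 0.02), and 0 of the 5 genes related to Grip1 (median 0.00). Each of these rests on 4 and 11 cells of 1 embryo.

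**Figure D5:**
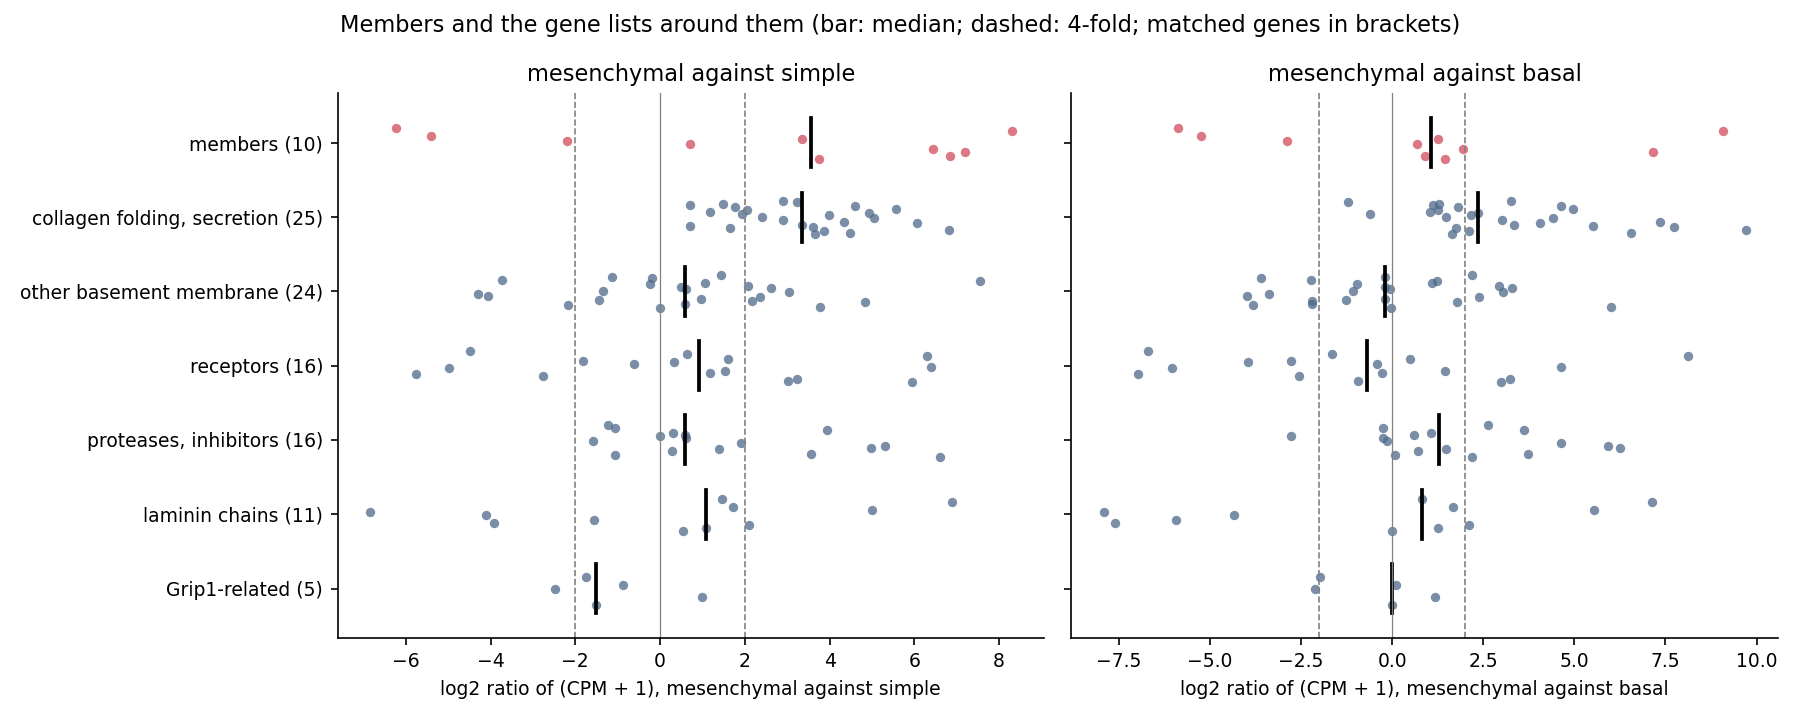
Log2 ratio of summed CPM + 1 for each member and each gene of the 6 lists, mesenchymal against simple and mesenchymal against basal; each point is 1 gene, the bar is the list's median and dashed lines mark 4-fold. The collagen enzymes lie mostly above 0, with medians of 3.35 and 2.35, and the members spread to both sides, from Nid2 at 8.30 to Frem2 at -6.22 in the first comparison.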

How the data were processed

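The authors deposited estimated counts per gene (expected_counts), made from SMART-Seq HT reads of single cells with HISAT2 on mm10 and featureCounts on an Ensembl annotation. Per column, counts were rounded and divided by the column total to give CPM, since 23.2% of nonzero values were not whole. All 237 columns were used, 0 pairs of columns were identical, and the 221 columns not paired with a labelled cell were used pooled, by marker state. Summed counts of a state were compared as log2 ratios of CPM + 1, called at 4-fold among genes with at least 10 CPM in 1 of the 2 groups. Values per kb used GENCODE exon lengths on GRCm38. Promoters were taken from RefSeq windows. Genes were named if they were members, state or cell type markers, among the 4 largest called ratios of a list (collagen enzymes, other components, receptors, proteases, laminins and Grip1-related genes), or the 5 nearest neighbours of 4 members. Members and lists were chosen with earlier results of these data known. No statistical test between states was used and no doublet caller was run. A gap test for outliers, with a limit of 0.829, was used on the members in the 4 WT-KCP cells. Computation used Python 3.11.15, with numpy 2.4.6 and pandas 2.3.3 for the tables, scipy 1.17.1 for the intervals and matplotlib 3.10.9 for the figures. Only the log2 ratios of summed counts were tested on simulated data, drawn as Poisson counts without extra spread between cells or embryos. Alternatives changed the state limits, the totals, the summary, the pseudocount, the fold, the filter and the libraries used.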

Additional observations from a re-analysis of the deposited data

Results flagged for a closer look

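In the 4 WT-KCP cells, 2 of the 9 members with a count had 1 cell far from the other 3. Nid1 was at 36.2 CPM in cell 1, and the next highest cell was at 0.285 CPM, a gap of 0.992 of the whole range. Grip1 was at 97.7 CPM in cell 1, and its gap to the next highest cell was 0.851 of the range. The limit for 4 cells is 0.829, at which chance flags about 1 in 20 groups of normally distributed values. CPM of single cells is skewed, so the rate at which chance flags these groups is not known and can be higher. Both high values were in the same cell. Their cause was not tested.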

How the results depend on the processing

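Between mesenchymal and simple libraries 8 of 10 members passed 4-fold in either direction, and the count was 8 or 9 in every alternative. Between mesenchymal and basal libraries it was 5, and 5 or 6 in the alternatives that kept 4-fold, where Frem1 crossed the limit. With a 2-fold limit it was 8, where 35.4% of the genes tested passed. Between simple and basal libraries it was 4, and 3 or 4 at the 4-fold limit. Between WT-KCP and WT-KCB cells it was 1, 3 with a 2-fold limit (31.4% of genes) and 0 to 2 with 1 cell left out at a time. A lower limit passes more genes by construction. The 40 ratios of members had 620 values under alternatives, and 0 of the ratios past 4-fold changed sign. Among smaller ratios, those of Nid1 and Hspg2 between simple and basal libraries, near 0, changed sign, as did Nid1 (to -2.15), Grip1 (to -0.94), Frem2, Col7a1 and Col4a2 between WT-KCP and WT-KCB cells with 1 cell left out. The log2 ratio of Col4a1 between mesenchymal and simple libraries ranged from 3.01 to 4.06, that of Nid2 from 7.05 to 9.37, and that of Frem1 between mesenchymal and basal libraries from 1.76 to 2.37. Alternatives that left out red blood cell, Col3a1, muscle marker or highest libraries were chosen after seeing the data. None of the other alternatives was left unrun.

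No paired analysis was possible because the embryo of 221 libraries is not known. State, genotype, embryo and preparation cannot be told apart, and the labelled cells come from 1 embryo. A count of 0 allows up to 0.00649 CPM over the basal group by the number of reads alone, not by the number of cells. Without molecular identifiers, 1 molecule can give many reads. The intervals of summed counts cover the counting of reads only, and those of shares treat libraries as independent draws.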

Other observations

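The 39 libraries that met no state rule had at least 10 CPM of Col4a1 in 17, Col4a2 in 17, Hspg2 in 16, Fras1 in 26, Frem2 in 12, Nid1 in 7, Grip1 in 5, Nid2 in 4, Col7a1 in 2 and Frem1 in 2.

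The 1 library that met the mesenchymal and the simple rule had 7136311 counts. It held 314 CPM of Col4a1, 256 of Col4a2, 249 of Nid1 and 188 of Nid2, together with 198 CPM of Fras1, 112 of Frem2 and 70.5 of Frem1. Hspg2 was at 23.8 CPM, and Col7a1 and Grip1 were at 0. Its markers were Krt8 at 169, Krt18 at 192, Col1a1 at 540.3 and Col3a1 at 3542 CPM, with Krt5 at 2.24 and Krt14 at 2.52 CPM. Whether it held 1 cell or more was not tested.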
